A study of Homo sapiens with 6 samples.

Results

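Keratins are the intermediate filament proteins of epithelial cells, and 8 keratin genes of SK-Hep1 cells were described here, of 62700 gene IDs in the deposited values and of 55 protein-coding keratin genes in the annotation. They were selected on the readout of the knockdown against control contrast. KRT8 and KRT18, keratins of simple epithelia, were taken for lower values after knockdown, the hair-type KRT34 for a higher value, and KRT7, KRT17, KRT19, KRT80 and KRT81 were set beside them. The differences of these 8 genes between the groups are therefore a description without a test.

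RNA-Seq was performed on 6 libraries of SK-Hep1 cells, a line widely used as a hepatocellular carcinoma model. The study itself describes the line as endothelial-derived. The 3 control libraries were titled with a control shRNA, while their genotype label reads wild type. The 3 knockdown libraries were titled as carrying shRNA against the long non-coding RNA RAB30-DT. The study made more than 1 such shRNA and the knockdown columns are headed sh1 to sh3, so whether the 3 share 1 shRNA, and hence what their spread measures, is not settled by the labels. Per the study's methods, the pLKO.1 shRNA vectors were delivered by lentivirus and the cells were kept under puromycin selection as stable lines. The labels do not say whether replicates were separate cultures, so p-values measure the spread between these samples, which may be technical. Vector or selection effects and the knockdown cannot be told apart if the controls were untransduced. The targeted transcript, RAB30-DT, had 18.2, 11.5 and 13.9 TPM, a length-scaled share of a library's transcripts, in the controls and 11.9, 10.9 and 6.50 TPM after knockdown. The ranges overlapped, and the difference was -0.55 with a standard error of 0.27 on the log2(TPM + 1) scale. Between 13732 and 14094 genes per library reached 1 TPM.

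A keratin filament is built from obligate pairs of a type I (acidic) and a type II (basic) keratin, so each cell needs both classes. KRT8 (type II) and KRT18 (type I) form the pair of simple epithelia, including hepatocytes, and KRT7 (type II) and KRT19 (type I) are added in ductal epithelia. KRT17 is a type I keratin of stressed and appendage epithelium, KRT80 a type II keratin of stratifying epithelium, and KRT34 (type I) and KRT81 (type II) are hair keratins. Partners are held together through a long coiled rod whose ends are among the most conserved stretches of the family.

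The start of the rod in the coding sequence is set side by side for the 4 type I genes. The 45 bases below run from coding position 262 in KRT18 and KRT19, 190 in KRT34 and 274 in KRT17, counted from the first base of the coding sequence in GENCODE release 44, and capitals mark the 33 positions equal in all 4.
KRT18: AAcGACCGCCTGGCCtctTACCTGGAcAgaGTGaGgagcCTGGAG
KRT19: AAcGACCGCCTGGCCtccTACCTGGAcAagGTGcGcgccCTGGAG
KRT17: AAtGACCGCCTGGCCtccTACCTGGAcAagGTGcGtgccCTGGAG
KRT34: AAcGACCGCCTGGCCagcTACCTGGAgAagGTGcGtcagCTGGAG
In this stretch KRT19 equalled KRT18 at 38 of 45 bases, KRT17 at 37 and KRT34 at 34. The stretch was placed to begin at the longest run without a difference in the coding sequences of KRT18 and KRT19, which was 17 bases. Those 17 matches of KRT19 were thus set by the choice of stretch, and the counts do not rank the genes by closeness to KRT18.

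Stretches shared with other genes limit how exactly reads are assigned. Cut into 50-base windows, the canonical transcript of KRT8 had 39.2% of its windows in another annotated transcript, KRT18 35.3%, KRT81 44.6%, KRT17 17.4% and KRT34 12.2%. The share was 1.79% for KRT19, 1.08% for KRT7 and 0.418% for KRT80. For KRT8 and KRT18 the sharing was led by pseudogenes, KRT8P3 (22.8% of the windows of KRT8) and KRT18P11 (11.1% of those of KRT18). Pseudogene values summed to 0.782% to 1.7% of KRT8 and 0.155% to 0.399% of KRT18 in the 6 libraries. The 2 pseudogenes with a mean of at least 1 TPM were KRT8P12, with a log2 difference of 0.13 (SE 0.22, limma adjusted p = 0.81), and KRT8P3, with -0.94 (SE 0.25, limma adjusted p = 0.121).

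Among the pairs of keratin coding sequences compared, the hair keratins shared the longest runs, each with a neighbouring gene. Runs shared with pseudogenes were not measured. KRT81 and KRT86 are identical over 605 coding bases (positions 61 to 665 in both), and KRT34 and KRT33B over 113 (positions 145 to 257 in both). The first 60 bases of each run are shown because values of these genes rest on how such reads were divided.
KRT81 and KRT86: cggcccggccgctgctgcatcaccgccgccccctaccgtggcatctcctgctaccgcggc
KRT34 and KRT33B: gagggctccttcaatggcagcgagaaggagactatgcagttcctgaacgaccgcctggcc
Of the 8 genes, KRT81 had the highest share of windows found elsewhere.

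**Figure D1:**
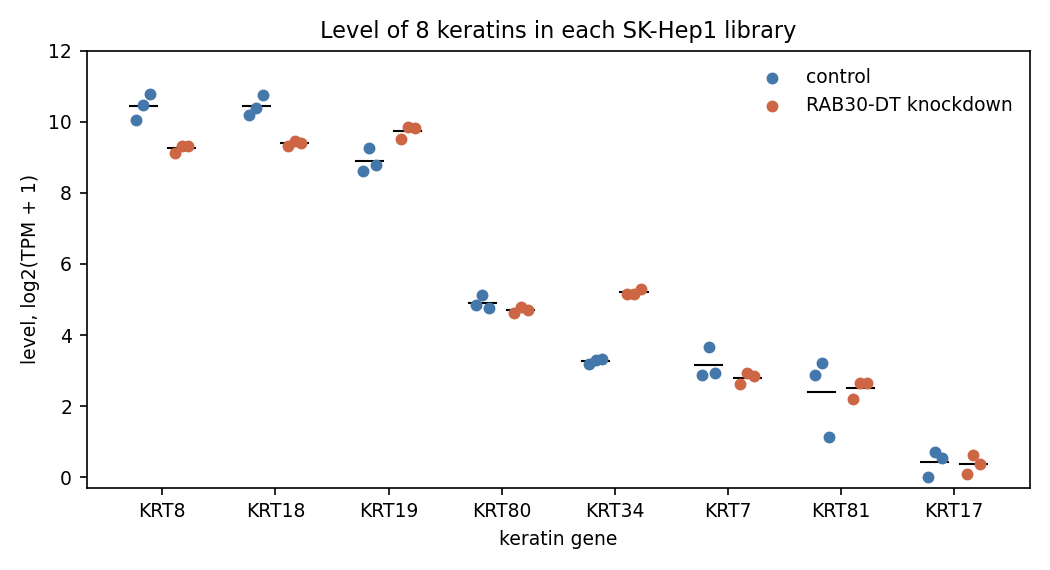
Level of the 8 keratins as log2(TPM + 1) in each library, with 3 control and 3 RAB30-DT knockdown points per gene and a bar at each group mean. KRT8 and KRT18 sit lower and KRT19 and KRT34 higher in the 3 knockdown libraries, and the groups overlap for KRT80, KRT7, KRT81 and KRT17.

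KRT8 and KRT18, the filament pair of simple epithelia, were both lower after knockdown, with mean TPM 2.32-fold and 2.08-fold higher in the controls. KRT8 (chr12:52897187-52949954, minus strand, hg38) had 1058, 1409 and 1771 TPM in the controls and 551.2, 634.7 and 643.0 TPM after knockdown. Every control library lay above every knockdown library, with 414.9 TPM between the nearest of them. The means were 1413 ± 357 (SD, n = 3) and 609.6 ± 50.7 TPM (SD, n = 3), and the difference was -1.18 (SE 0.19) on the log2(TPM + 1) scale.

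KRT18 (chr12:52948871-52952906, plus strand) had 1166, 1328 and 1712 TPM in the controls and 642.1, 709.0 and 675.9 TPM after knockdown. Its groups did not overlap either, with a gap of 457.4 TPM. The means were 1402 ± 280 (SD, n = 3) and 675.6 ± 33.4 TPM (SD, n = 3), with a log2 difference of -1.03 (SE 0.16). By control mean, KRT8 ranked 121st and KRT18 124th of all genes, and by knockdown mean 188th and 177th. In bulk RNA, fewer cells expressing a gene and less RNA per cell cannot be told apart.

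The 2 genes stand next to each other on chromosome 12 and are annotated on opposite strands with 1084 bases in common. The canonical start of KRT8 lies at position 52905076, outside this overlap, and the labelled library preparation names no step that marks strand. Within each library the pair stayed close to equal amounts: the KRT8 to KRT18 ratio was 0.907, 1.06 and 1.03 in the controls and 0.859, 0.895 and 0.951 after knockdown. These ratios overlapped, and the log2 ratio differed by -0.15 between the groups. The control values of both genes were also spread more widely, with a coefficient of variation of 25.2% for KRT8 and 20% for KRT18 against 8.32% and 4.95% after knockdown.

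KRT19, the smallest keratin and a marker of bile duct and progenitor epithelium, stood on the opposite side. KRT19 (chr17:41523617-41528308, minus strand) had 390.3, 612.0 and 443.0 TPM in the controls and 725.2, 923.2 and 914.0 TPM after knockdown. All knockdown libraries lay above all controls, by 113.3 TPM at the nearest. The means were 481.8 ± 115.8 (SD, n = 3) and 854.1 ± 111.7 TPM (SD, n = 3), a 1.77-fold difference, or 0.84 (SE 0.19) on the log2(TPM + 1) scale.

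The order of the leading keratins differed between the groups. KRT19 was below both KRT8 and KRT18 in each control library and above both in each knockdown library. Its ratio to KRT18 was 0.335, 0.461 and 0.259 in the controls and 1.13, 1.3 and 1.35 after knockdown. Its ratio to KRT8 was 0.369, 0.434 and 0.250 in the controls and 1.32, 1.45 and 1.42 after knockdown. KRT8 was below KRT18 in all 3 knockdown libraries and in control replicate 1, and above it in control replicates 2 and 3.

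**Figure D2:**
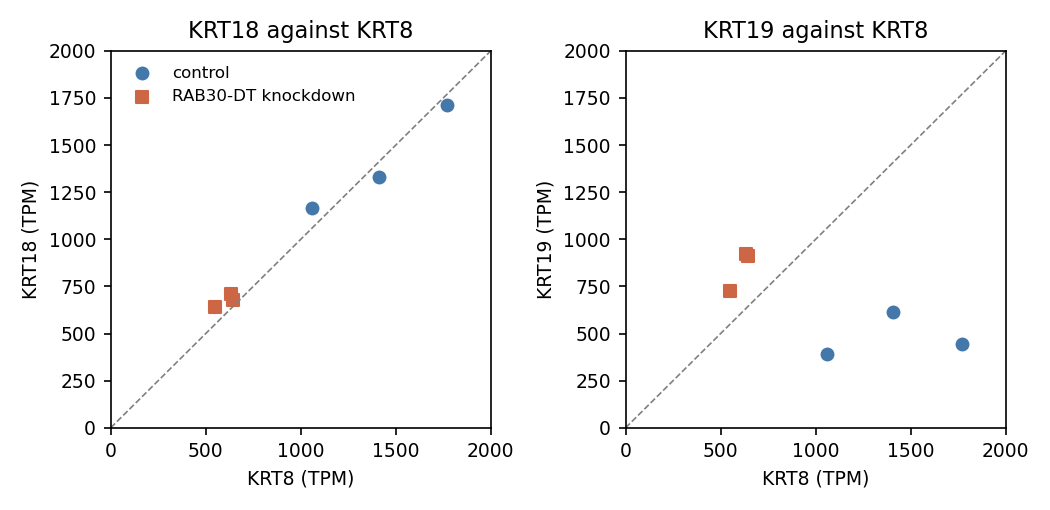
KRT18 (left) and KRT19 (right) against KRT8 in TPM, 1 point per library, with a dashed line of equal levels. KRT18 follows the line in both groups, while KRT19 lies under it in the controls and above it after knockdown.

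KRT34, a type I keratin of the hair cortex, had the widest relative gap of the 8. KRT34 (chr17:41377669-41382306, minus strand) had 8.12, 8.83 and 9.05 TPM in the controls and 34.7, 34.6 and 38.3 TPM after knockdown. Replicates lay close together in both groups, with a coefficient of variation of 5.61% and 5.85%, and the groups were 25.5 TPM apart. The means were 8.67 ± 0.486 (SD, n = 3) and 35.8 ± 2.10 TPM (SD, n = 3), a 4.13-fold difference, or 1.93 (SE 0.17) on the log2(TPM + 1) scale. In TPM, KRT34 remained far below KRT8, KRT18 and KRT19. Its means were not below those of KRT7, which were 8.19 TPM in the controls and 6.0 TPM after knockdown. KRT34 made up 0.453% ± 0.052 of type I keratin TPM in the controls and 2.23% ± 0.195 after knockdown (SD, n = 3).

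The 250 bases before the annotated start of KRT34 (RefSeq, GRCh38.p14, chr17:41382307-41382556, minus strand) are printed because KRT34 had the widest relative gap, with the match to TATAAA in capitals.
KRT34 promoter: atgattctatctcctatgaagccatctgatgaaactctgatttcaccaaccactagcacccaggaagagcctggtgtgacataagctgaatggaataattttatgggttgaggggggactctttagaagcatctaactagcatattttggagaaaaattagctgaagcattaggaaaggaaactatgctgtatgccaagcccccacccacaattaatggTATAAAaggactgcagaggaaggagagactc
TATAAA was found 31 bases before the start. Of 35116 RefSeq promoter entries, 11.5% held it on either strand, counted over a longer window that also runs past the start. The percentages below use that longer window too. The letters TGANTCA (7.71% of promoters), GGGCGG (45%), TGACG (24.6%) and ACGTG (21.4%), searched on both strands, did not occur in this window. An entry was found for 2 of the 8 genes. That of KRT8 begins 21393 bases away from the canonical start used here and held none of the 5 motifs. KRT18, KRT19, KRT7, KRT17, KRT80 and KRT81 had no entry.

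KRT80, KRT7, KRT81 and KRT17 overlapped between the groups. KRT80 (chr12:52168996-52192014, minus strand), of stratifying epithelium, had 27.7, 33.6 and 26.3 TPM in the controls and 23.4, 26.4 and 24.9 TPM after knockdown, a log2 difference of -0.22 (SE 0.17). The overlap was narrow, at 0.13 TPM between the lowest control and the highest knockdown library.

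KRT7 (chr12:52232520-52252186, plus strand), the ductal type II partner, had 6.28, 11.7 and 6.58 TPM in the controls and 5.19, 6.68 and 6.14 TPM after knockdown. Control replicate 2 stood above the other 5 libraries, which lay close together. The log2 difference was -0.35 (SE 0.27), and without that library it was -0.09.

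KRT81 (chr12:52285913-52291534, minus strand), a hair cortex keratin, had 6.31, 8.26 and 1.17 TPM in the controls and 3.61, 5.30 and 5.31 TPM after knockdown. Control replicate 3 was far below the other controls, and the knockdown libraries lay between. The log2 difference was 0.11 (SE 0.51), changing sign to -0.53 without that library, to -0.40 with library weights and to -0.01 with a pseudocount of 5. Its near-identical relative KRT86 had 1.02, 1.18 and 0.03 TPM in the controls and 0.30, 0.15 and 0.38 TPM after knockdown. The sum of both was 7.33, 9.44 and 1.2 against 3.91, 5.45 and 5.69 TPM, so control replicate 3 was low for both.

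KRT17 (chr17:41619442-41624842, minus strand), which is induced in wounded epidermis, was close to 0. It had 0, 0.62 and 0.46 TPM in the controls and 0.06, 0.55 and 0.30 TPM after knockdown, was below the filter of a mean of 1 TPM, and was not fitted.

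Across the whole table, limma (lmFit and eBayes with trend on log2(TPM + 1)) fitted 14020 genes, of which 1.04% passed a Benjamini-Hochberg adjusted p of 0.05. Among the 7 keratins fitted, 3 passed (KRT8 and KRT18 lower, KRT34 higher), and since the keratins were selected on this contrast nothing is read from that count. Of the same 7, 4 had groups that did not overlap, as had 23.3% of all fitted genes. The median log2 difference was -0.22 over the 7 and -0.04 over all genes fitted. Because of the selection, nothing is read from these comparisons either.

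**Figure D3:**
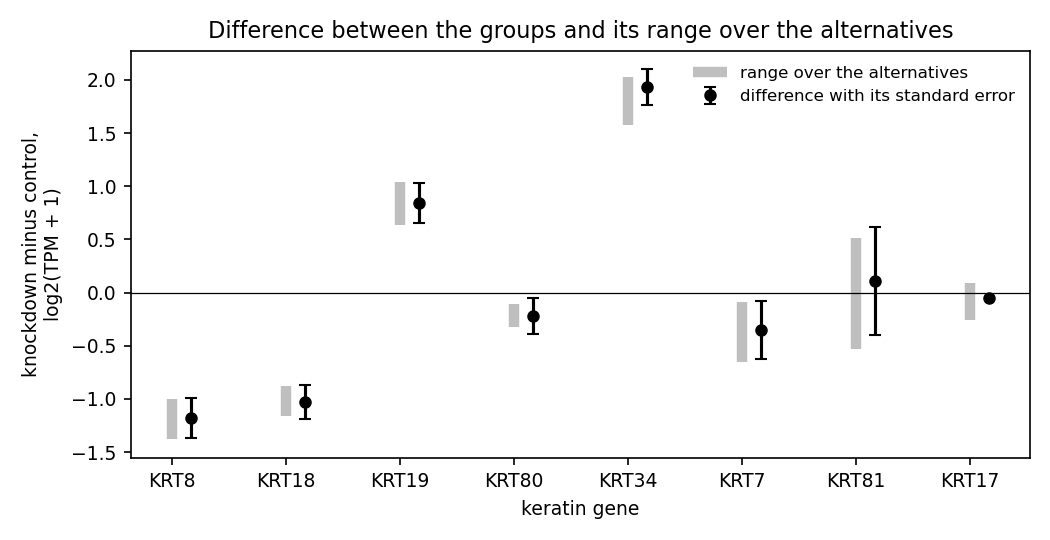
Difference of the group means (knockdown minus control, log2(TPM + 1)) for each keratin with its standard error (black, none for KRT17, which was not fitted), beside the range over the alternatives of processing and left-out libraries (grey). The ranges of KRT8, KRT18, KRT19, KRT34, KRT7 and KRT80 stay on 1 side of 0, although the groups of KRT7 and KRT80 overlap. Those of KRT81 and KRT17 cross it.

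The keratin pool as a whole differed in its make-up. Type II keratins summed to 1099, 1464 and 1806 TPM in the controls and 583.8, 673.6 and 679.7 TPM after knockdown, without overlap. Type I keratins summed to 1593, 1994 and 2222 TPM in the controls and 1447, 1718 and 1681 TPM after knockdown, and these ranges overlapped. The higher KRT19 stood against the lower KRT18 within the type I sum, whereas KRT8 made up 96.8% ± 1.06 of type II TPM in the controls and 94.4% ± 0.184 after knockdown (SD, n = 3).

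The type I share of keratin TPM was 59.2%, 57.7% and 55.2% in the controls and 71.3%, 71.8% and 71.2% after knockdown. The groups did not overlap, and their means differed by 14.1 percentage points. KRT18 made up 72.3% ± 5.29 of type I TPM in the controls and 41.9% ± 2.17 after knockdown, and KRT19 25.0% ± 5.39 and 52.7% ± 2.29 (SD, n = 3). These shares use the same contrast as the selection and are given without a test.

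**Figure D4:**
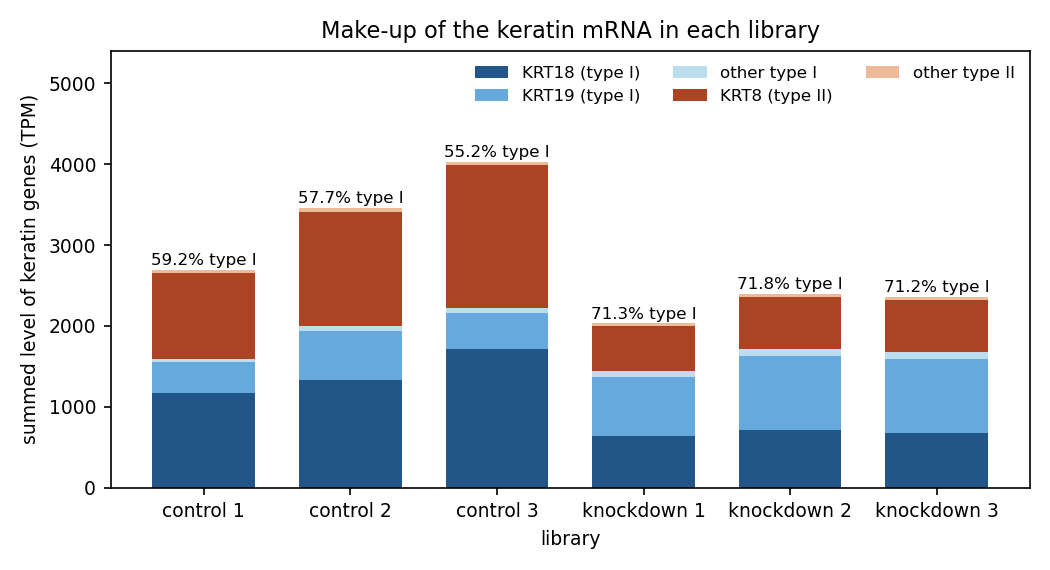
Summed TPM of all keratin genes in each library, divided into KRT18, KRT19 and other type I genes (blue) and KRT8 and other type II genes (brown), with the type I share above each bar. The total is lower in the 3 knockdown libraries (2031 to 2391 TPM) than in the controls (2692 to 4028 TPM), and the type I share is higher.

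The rest of the family was nearly silent. Of 55 keratin genes (29 type I, 26 type II), 10 had a mean of at least 1 TPM and 27 were at 0 in all 6 libraries, KRT5 and KRT14, the basal epidermal pair, among them. Of 17 hair keratin genes 3 reached that mean, KRT34, KRT81 and KRT33B, and 7 were at 0 throughout. Hair keratins summed to 16.5, 19.7 and 13.7 TPM in the controls and 41.8, 42.9 and 46.5 TPM after knockdown, and in the knockdown libraries most of this was KRT34.

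The 3 keratins outside the selected set with a mean of at least 1 TPM were type I genes of chromosome 17, and none passed the test. KRT15, a basal keratin whose gene lies 1088 bases from KRT19, had 14.7, 18.7 and 27.5 TPM in the controls and 26.1, 33.6 and 29.6 TPM after knockdown, a log2 difference of 0.57 (SE 0.25, limma adjusted p = 0.296). KRT10, of differentiating epidermis, had 12.5, 25.2 and 26.3 TPM in the controls and 15.6, 14.1 and 20.7 TPM after knockdown (log2 difference -0.28, SE 0.30, limma adjusted p = 0.682). KRT33B, 7856 bases from KRT34 and sharing the run shown above, had 0.92, 0.87 and 3.20 TPM in the controls and 2.61, 1.57 and 1.67 TPM after knockdown (log2 difference 0.24, SE 0.38, limma adjusted p = 0.794). Neither neighbour separated the groups in the way that KRT19 or KRT34 did.

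Other genes within 100 kb of the 8 keratins that could be fitted did not pass the test. Beside KRT8 and KRT18, the translation initiation factor EIF4B had a log2 difference of 0.37 (SE 0.12, limma adjusted p = 0.175), the focal adhesion gene TNS2 0.76 (adjusted p = 0.31) and TNS2-AS1 0.16 (adjusted p = 0.803). Beside KRT80, ATG101 had -0.39 (adjusted p = 0.508) and ENSG00000257663 -0.70 (adjusted p = 0.204), and beside KRT17 EIF1 had 0.25 (adjusted p = 0.304). At EIF4B the controls had 352.9 to 375.9 TPM and the knockdown libraries 451.4 to 498.8 TPM, opposite in sign to KRT8 and KRT18.

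Keratin-associated proteins crosslink hair keratins in the hair shaft. They were examined after the values were seen. Of 94 genes, taken by name from all chromosomes, 79 were at 0 in all libraries and 3 could be fitted. These 3 lie on chromosome 17, as KRT34 does. KRTAP1-5, 350461 bases from KRT34, had 0.54, 0.18 and 0.61 TPM in the controls and 4.48, 3.84 and 5.96 TPM after knockdown, a log2 difference of 1.99 (SE 0.28). The groups did not overlap. The log2 difference was 0.84 with a pseudocount of 5 and 3.25 with a pseudocount of 0.1. It reached a mean of 1 TPM through the knockdown libraries and was picked for its values, so they are given as a description without a test. KRTAP2-3 was far more abundant, with 354.8, 402.0 and 710.8 TPM in the controls and 562.0, 583.3 and 588.0 TPM after knockdown, and did not pass (log2 difference 0.31, SE 0.24, limma adjusted p = 0.557). KRTAP4-9 had a log2 difference of 0.12 (SE 0.33, limma adjusted p = 0.885).

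Genes whose products surround keratin filaments were taken from 10 lists with 130 genes in all, of which 63 could be fitted. Of these, 24 were higher and 39 lower after knockdown, with a median log2 difference of -0.06, and 1 passed the test (1.59%, against 1.04% of all genes). Groups did not overlap for 14 (22.2%, against 23.3% of all genes), so the lists stood near the background on both counts. By limma's unadjusted p, 12 of the 63 were under 0.05, as were 2350 of all 14020 genes.

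TGM2, transglutaminase 2, which crosslinks proteins including keratins, was the gene that passed. It had 430.5, 526.8 and 416.9 TPM in the controls and 160.9, 209.8 and 213.0 TPM after knockdown, and fell by 1.23 on the log2 scale (SE 0.17, limma adjusted p = 0.0252). The adjusted p ranged from 0.000493 to 0.131 over 18 alternatives, and 12 kept the call. It was 0.0854 without the filter on low values, 0.0518 with eBayes without trend, 0.119 without control replicate 2 and 0.0935, 0.0995 and 0.131 without knockdown replicates 1, 3 and 2.

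Filament proteins other than keratins did not pass the test. VIM (vimentin), the intermediate filament of mesenchymal cells, had 3997, 3857 and 3793 TPM in the controls and 4724, 4784 and 4336 TPM after knockdown. It was above the whole keratin sum in all libraries but control replicate 3. Its groups did not overlap, at a log2 difference of 0.25 (SE 0.09, limma adjusted p = 0.225). Among the 8 fitted filament genes the lowest difference was that of LMNB2, a nuclear lamin, at -0.61 (adjusted p = 0.297), and the highest that of IFFO1 at 0.42 (adjusted p = 0.466).

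The junctions to which keratins attach gave 0 calls by limma, with 0 of 5 plakins and linkers, 2 of 6 desmosome genes and 1 of 6 hemidesmosome genes at an unadjusted p under 0.05. JUP (plakoglobin), a desmosomal plaque protein, was lowest among desmosome genes at -1.0 (SE 0.31, limma adjusted p = 0.164), with 17.5 ± 7.14 TPM in the controls and 7.74 ± 0.804 TPM after knockdown (SD, n = 3), and PERP was highest at 0.32 (adjusted p = 0.647). Of the 6 desmosome genes, 5 were lower, where 53.7% of all fitted genes were, and 4 did not overlap, where 23.3% of all fitted genes did not. With 0 calls among so few genes, nothing particular to desmosomes is read from these counts. ITGB4, the integrin chain that links keratins to hemidesmosomes, was lowest among hemidesmosome genes at -0.33 (SE 0.31, limma adjusted p = 0.626). Of the plakins and linkers, EVPL had -0.40 (adjusted p = 0.549) and DSP, which anchors keratins to desmosomes, 0.34 (adjusted p = 0.681).

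Genes of simple epithelium and of epidermis and hair likewise had no call by limma, at 1 of 7 and 1 of 12 genes with an unadjusted p under 0.05. SPINT2, a serine protease inhibitor of epithelia, was lowest at -1.34 (SE 0.35, limma adjusted p = 0.12) and KLF5 highest at 0.38 (adjusted p = 0.404). S100A3, a calcium-binding protein of the hair cuticle, was lowest of the epidermis and hair genes at -0.85 (adjusted p = 0.246), and FLG (filaggrin), which bundles keratins, highest at 0.42 (adjusted p = 0.50). Of the mesenchymal transition factors, TWIST1 had -0.40 (adjusted p = 0.586) and SNAI2 0.42 (adjusted p = 0.598), and none of 5 had an unadjusted p under 0.05.

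**Figure D5:**
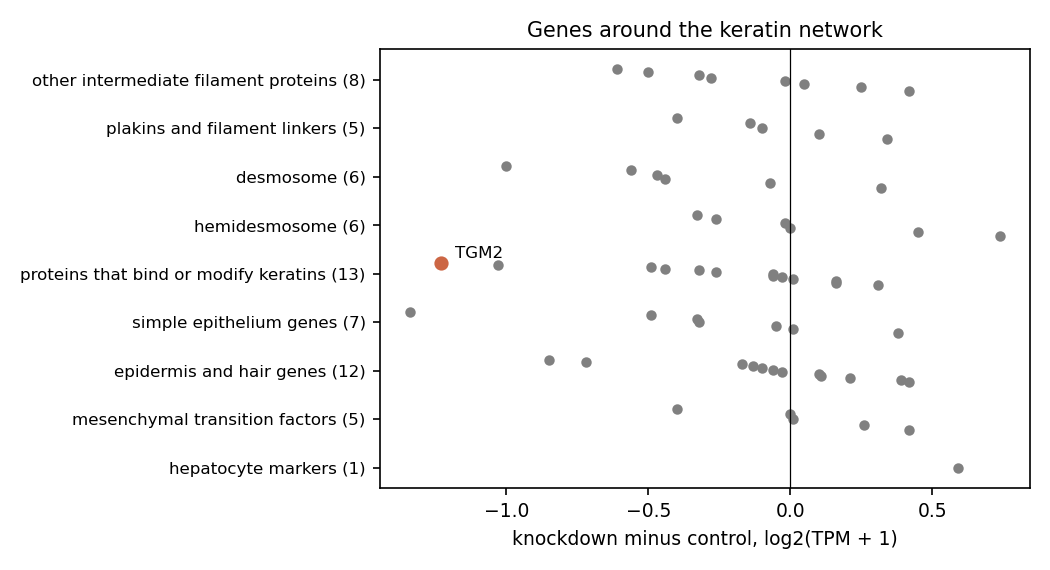
Difference of the group means (knockdown minus control, log2(TPM + 1)) for the 63 fitted genes of the lists, 1 point per gene, with the number of genes in brackets. TGM2, in colour at -1.23, is the gene that passed the test, and the other points lie on both sides of 0.

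The line was checked against markers of the cell types its label could hold. Of 10 endothelial markers 0 had a mean of at least 1 TPM, with KDR and ERG at 0 in all libraries, and their sum was 0.72 to 3.62 TPM in the controls and 1.15 to 2.45 TPM after knockdown. Of 9 hepatocyte markers 1 did, SERPINA1, at a log2 difference of 0.59 (limma adjusted p = 0.192), while ALB, TTR, HNF4A, CYP3A4 and APOB were at 0. Of the epithelial markers, KRT8, KRT18 and KRT19 were abundant, whereas CDH1 (E-cadherin) was at 0 in all libraries and EPCAM at 0 in 5 of 6. The keratins were thus measured in cells with high vimentin mRNA and without that of E-cadherin, and the part of other cell types in the keratin values was not tested.

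The genes most like KRT8, KRT18 and KRT34 over the 6 libraries were named by Pearson's r of log2(TPM + 1), as a description, since the libraries fall into 2 groups. KRT18 had r = 0.994 with KRT8 and stood 17th of 14019 genes in likeness to it. The 5 before all others for KRT8 were ENSG00000290920, SRSF1, PAF1, APOBEC3B and SDC4 (r from 0.997 to 0.999). They were WWC1, PRPS1, PGAM1, RNPS1 and SDC4 for KRT18 (0.996 to 0.999), and ENSG00000285722, RPL12, ENSG00000267069, FAHD1 and ACTA2 for KRT34 (0.995 to 0.997). On deviations from the group means, r between KRT8 and KRT18 was 0.957, at rank 591 of 14019. There the nearest genes were GTF2H4, MTG1, PIDD1, WDR54 and OPLAH for KRT8, TEDC2, ENSG00000250899, ENSG00000290823, UBXN11 and BAIAP2 for KRT18, and PRR13P5, GNPTG, SMN2, SMUG1 and PNKD for KRT34. All of these values come from the same 6 libraries as the keratins.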

How the data were processed

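RNA of SK-Hep1 cells was sequenced after poly-A selection in 6 libraries, 3 control and 3 knockdown, grouped by title. The authors deposited gene-level TPM values with 2 decimals, from which read numbers cannot be had. Depth is thus unknown, no counting interval was given, and precision comes from 3 libraries per group. The methods name fastp, STAR, samtools and RSEM with GENCODE release 45, whereas the submitters' processing notes list fastp and HISAT2 2.0.5, and the gene IDs matched release 44 for 62700 of 62700, which was used here with hg38.

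Values were analysed as log2(TPM + 1) with limma 3.58.1 in R 4.3.3 (lmFit, eBayes with trend, 2-sided, no replicate block) for the 14020 genes averaging 1 TPM or more, at a Benjamini-Hochberg adjusted p of 0.05. The fit was tested on simulated data. The keratins and lists were chosen with earlier results of these data known. Named genes were the 8 keratins, other keratins and keratin pseudogenes at that level, called list genes or otherwise each list's lowest and highest, fitted genes within 100 kb, and the 5 genes most like KRT8, KRT18 and KRT34. One gene of this rule is not reported here. Genes named outside this rule (VIM, KRT86 and the keratin-associated proteins) were chosen after their values were seen. Alternatives were a pseudocount of 0.1 or 5, the filter dropped or raised to 5 TPM, scaling by median-of-ratios or quantiles, eBayes without trend or robust, library weights, removal of the trend with GC content (loess, span 0.3), pseudogene values added to their parents, a replicate block, and each library left out. The block with GC removal was added after seeing the data.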

Additional observations from a re-analysis of the deposited data

How the results depend on the processing

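The differences of KRT8 (-1.38 to -1.0), KRT18 (-1.16 to -0.88) and KRT19 (0.64 to 1.04) kept their sign and moved by less than the spread between replicates under all alternatives run for them, as did the KRT8 to KRT18 log2 ratio (-0.22 to -0.10) and the difference in the type I share (13.0 to 15 percentage points). KRT34 moved to 2.03 with a pseudocount of 0.1 and to 1.58 with a pseudocount of 5, and was between 1.88 and 1.96 with each library left out. In all, 129 of 143 recomputed values moved by less than that spread or, for counts, within 1.5 times. These include the replicate block, which cannot change a difference of group means when each replicate number occurs once in each group. The 129 also include changes of sign smaller than the spread. KRT81, at 0.11, ranged from -0.53 to 0.51, and KRT17, at -0.05, from -0.26 to 0.09. Scaling, weights and GC removal were not run for KRT17.

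The number of list genes called by limma, 1 as reported, was 0 without a filter (11 at an unadjusted p under 0.05) and 0 with eBayes without trend (10 at an unadjusted p under 0.05), 18 of 63 with library weights (23% of all genes called), 5 of 63 with GC removal (8.61% of all genes), and 0 to 3 with each library left out (0 without control replicate 2 and without knockdown replicate 1, 2 or 3, with 6, 8, 8 and 11 genes at an unadjusted p under 0.05). With the replicate block it was 5 of 63 (6.14% of all genes), and 6 of 63 with the replicate block and GC removal (7.51% of all genes), so the counts moved with the calls over all genes. Same-numbered libraries had correlations of 0.41, 0.0359 and 0.279 between their deviations. Differently numbered libraries were not compared in this way, so whether the numbers pair the libraries is not settled. The main fit took them as unpaired. With each replicate number once in each group, the block cannot change a fold change, so it is no check of those of the keratins. For the moved counts, the cause was not tested. KRT34 moved only with the other pseudocounts, which are added to each value before the log2 is taken. With 3 libraries per group, the values of KRT7, KRT80 and KRT81 overlapped between the groups, and no test is read for any of the 8 keratins. KRT17 was not fitted. Without read counts, reads shared with pseudogenes or KRT86 cannot be reassigned.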
